A study of Mus musculus with 10 samples.

Results

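The genes described here carry mouse symbols that begin with Zfp or Zbtb followed by a number, which are names given to proteins with zinc fingers. A probe set was included when the platform annotation gave it exactly 1 symbol of that form. Zfp36, Zfp36l1, Zfp36l2 and Zbtb16 were left out by name. This gave 280 of 22690 probe sets on the array and 193 genes of 12394 named there, of which 23 were Zbtb genes and 170 were Zfp genes. After a filter on dim probe sets, 145 of the 280 probe sets and 108 of the 193 genes were tested, namely 14 Zbtb and 94 Zfp genes. The 85 genes with no tested probe set include Zfp57 and Zfp42, and nothing is said of them below unless the unfiltered counts are named.

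Most of these proteins bind DNA through tandem C2H2 zinc fingers, each of which holds a zinc ion and reads a few bases. Many Zfp proteins also carry a KRAB domain, which recruits Trim28 and through it the methyltransferase Setdb1 to silence transposable elements and some genes, whereas Zbtb proteins carry a BTB domain, which forms dimers and can bind corepressors. Messenger RNAs of transcription factors of this kind are known in other cells for short half-lives, and RNA labelled during a short pulse is known to hold relatively more of short-lived RNAs.

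The mice were C57/BLACK6 males of 7 weeks and about 20 g, and whole kidneys were used, so RNA of all kidney cell types was measured together. The contralateral kidneys were the unclamped kidneys of mice whose left renal vessels had been clamped for 45 min under ether. The modified nucleoside 4-thiouridine (s4U, 200 µM, with 3H-cytidine) was injected 1 h and 2 h after the clamp was opened, and the kidney was removed at 3 h. The normal kidneys came from mice that had no operation, which received the same injections at 0 h and 1 h, with removal at 2 h. No sham-operated group was analysed here, so surgery, ether and the clamped kidney cannot be told apart as sources of a difference. From each kidney group 1 array carried newly transcribed RNA, which holds the incorporated s4U, 2 arrays carried amplified total RNA, and 2 arrays carried total RNA. The labels call replicates of a group biological, without giving the number of mice behind each array.

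The arrays differed in ways that bear on every comparison between preparations. The ratio of the 3' to the 5' Gapdh control probe set was 68.9 for contralateral and 12.7 for normal newly transcribed RNA, 4.21 to 6.23 on the amplified arrays and 0.938 to 1.12 on the total RNA arrays. The median deposited intensity was 18.6 for contralateral and 70.3 for normal newly transcribed RNA and 26.6 to 59.7 on the others. Of 9 kidney markers, 8 were on the array and all 8 were tested, with a summed level of 12640 to 17550 on every array. Levels below are log2(intensity + 11.8) after quantile normalization, differences are on the same scale, ± is limma's standard error, and adjusted p-values are limma's with Benjamini-Hochberg adjustment over 13575 probe sets. A gene is represented by its brightest tested probe set.

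Newly transcribed RNA held relatively more of these transcripts than amplified total RNA did. Of the 145 probe sets, 28 were higher and 2 lower in newly transcribed RNA, against a background of 11.9% higher and 16.7% lower (28.6% called) among all tested probe sets. The members' median difference was 0.35, and that of all tested probe sets was -0.01. In 112 of 145 members the difference was above 0. By gene, 20 of 108 were higher and 1 was lower, against 13.1% and 16.9% of all 8300 tested genes. Both newly transcribed arrays exceeded all 4 amplified arrays in 43 members (29.7%, background 16.6%) and lay below all 4 in 6 members (4.14%, background 21%). Of the 18 Zbtb probe sets 2 were higher and 0 lower, and of the 127 Zfp probe sets 26 were higher and 2 lower. Without the contralateral newly transcribed array 50 members were higher and 3 lower (34.5% and 2.07%), against 19% and 21.8% of all probe sets in that fit. Without the normal one 35 of 140 were higher and 19 lower (25% and 13.6%), against 22% and 27.5%. Markers also moved between these preparations. Of 8 kidney markers 0 were higher and 5 lower in newly transcribed RNA (median -0.56), and of 4 endothelial markers 0 were higher and 3 lower (median -1.44). Of 5 fibroblast and smooth muscle markers 0 were higher and 2 lower, and of 5 tested leukocyte markers 1 was higher and 1 lower. The Gapdh ratios above differ as well, and the part of markers and ratios in the members' differences was not tested.

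**Figure D1:**
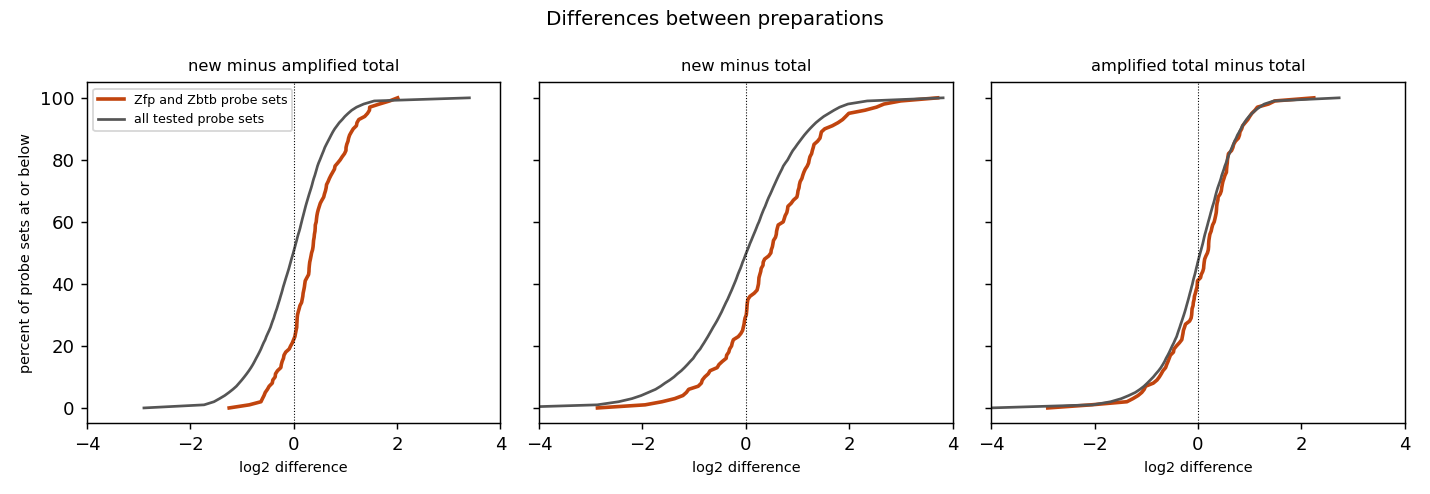
Cumulative curves of the log2 difference between preparations for the 145 tested Zfp and Zbtb probe sets and for all 13575 tested probe sets, with the percent of probe sets at or below each difference on the y axis. The member curve lies to the right of the other in newly transcribed minus amplified total RNA (medians 0.35 and -0.01) and in newly transcribed minus total RNA (medians 0.48 and 0.01), and closer to it in amplified minus total RNA (medians 0.18 and 0.04).

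The promoters of these genes are shown first for members on which the results below turn, because they differ widely in the CpG dinucleotides that mark many constitutively used promoters. Each runs from 250 bases before to 50 bases after an annotated start (RefSeq, GRCm38.p6), 5′ to 3′ on the gene's strand, and capitals mark every CpG. Zbtb14 lies at chr17:69382925-69383224 on the plus strand and holds 25 CpG. Zfp746 lies at chr6:48086544-48086843 on the minus strand and holds 39. Zbtb20 lies at chr16:43247034-43247333 and Zfp46 at chr4:136284426-136284725, both on the plus strand, with 3 CpG each. Zbtb14 and Zfp46 have further starts in the same table, of which the first listed is shown, and which start is used in kidney was not tested.
Zbtb14: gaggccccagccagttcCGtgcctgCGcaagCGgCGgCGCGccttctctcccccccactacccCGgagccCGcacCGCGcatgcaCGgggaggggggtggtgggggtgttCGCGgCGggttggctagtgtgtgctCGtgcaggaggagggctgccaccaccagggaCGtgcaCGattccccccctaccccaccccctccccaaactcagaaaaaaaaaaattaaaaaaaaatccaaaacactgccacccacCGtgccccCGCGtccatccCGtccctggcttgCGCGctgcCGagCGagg
Zfp746: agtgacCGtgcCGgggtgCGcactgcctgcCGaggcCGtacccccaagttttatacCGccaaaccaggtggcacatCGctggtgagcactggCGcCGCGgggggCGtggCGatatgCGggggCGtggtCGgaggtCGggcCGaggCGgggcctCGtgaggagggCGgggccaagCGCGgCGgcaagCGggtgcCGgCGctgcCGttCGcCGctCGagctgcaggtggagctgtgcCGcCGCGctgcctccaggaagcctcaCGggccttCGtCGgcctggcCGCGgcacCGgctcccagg
Zbtb20: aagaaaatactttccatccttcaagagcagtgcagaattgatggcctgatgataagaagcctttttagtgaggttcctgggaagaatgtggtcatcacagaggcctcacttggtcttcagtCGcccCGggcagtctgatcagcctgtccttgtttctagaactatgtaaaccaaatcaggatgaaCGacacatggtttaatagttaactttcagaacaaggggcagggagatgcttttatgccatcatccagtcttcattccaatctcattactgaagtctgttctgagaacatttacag
Zfp46: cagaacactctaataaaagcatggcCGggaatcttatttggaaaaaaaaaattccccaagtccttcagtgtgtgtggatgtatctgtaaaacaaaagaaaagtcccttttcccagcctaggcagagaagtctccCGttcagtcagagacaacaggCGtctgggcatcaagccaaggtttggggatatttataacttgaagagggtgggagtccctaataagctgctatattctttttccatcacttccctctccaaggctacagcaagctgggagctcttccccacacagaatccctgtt

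A promoter was found for 158 member genes and for 90 of those tested. The median was 20 CpG per window in tested members and 21 in the 6759 tested genes of the array that had a promoter. The GC box GGGCGG, bound by Sp1, was present on either strand in 64.4% of tested members and 65.5% of tested genes. The letters CCAAT were present on either strand in 46.7% of tested members and 38% of tested genes, and the letters TATAAA in 6.67% of tested members and 7.5% of tested genes. Overlap between the 3 motifs was not examined, and these shares describe the windows only. Over all 27025 promoters of the table, which include genes not on the array, the median was 7 CpG and the GC box share 35.9%.

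Zfp46 had the largest rise against amplified total RNA among member genes. Its level was 10.02 in contralateral and 9.14 in normal newly transcribed RNA, against 7.90 and 7.63 on the contralateral and 7.34 and 7.41 on the normal amplified arrays. Both newly transcribed arrays lay far above all amplified arrays, and the difference was 2.01 ± 0.25 (adjusted p = 0.000521).

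Zbtb14, a BTB zinc finger protein that binds GC-rich sequence and is known as a repressor of the Myc promoter, followed. Its level was 8.17 in contralateral and 9.40 in normal newly transcribed RNA, 6.67 and 6.68 on the contralateral and 7.07 and 7.29 on the normal amplified arrays, and 5.06 and 5.38 on the contralateral and 5.71 and 6.12 on the normal total RNA arrays. The 3 preparations did not overlap, with newly transcribed RNA highest and total RNA lowest. The difference was 1.86 ± 0.21 against amplified total RNA (adjusted p = 0.000394) and 3.22 ± 0.21 against total RNA (adjusted p = 4.56e-06). This probe set carries the suffix x, which marks possible cross-hybridisation, and its differences were the largest of the gene's 3 tested probe sets. The other 2 differed by 0.62 ± 0.35 and 0.21 ± 0.21 against amplified total RNA, neither past the threshold (adjusted p = 0.217 and 0.496).

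Zfp746, known as PARIS, a repressor of the metabolic coactivator Ppargc1a, differed by 1.46 ± 0.20 (adjusted p = 0.000787), with levels given further on. Zfp410, an activator of the chromatin remodeller gene Chd4, had a level of 8.06 in contralateral and 9.11 in normal newly transcribed RNA, against 7.27 and 6.94 on the contralateral and 7.17 and 7.39 on the normal amplified arrays. Its newly transcribed arrays were above all others, and the difference was 1.39 ± 0.27 (adjusted p = 0.0042).

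Zfp330, a protein of the nucleolus, had a level of 9.42 in contralateral and 10.07 in normal newly transcribed RNA, against 8.64 and 8.35 on the contralateral and 8.61 and 8.54 on the normal amplified arrays. The groups did not overlap, and the difference was 1.21 ± 0.20 (adjusted p = 0.00209). Zfp148, also called ZBP-89 and a binder of GC-rich promoter elements, differed by 1.84 ± 0.40 (adjusted p = 0.00765), but its level was 7.29 in contralateral and 9.45 in normal newly transcribed RNA. Its other tested probe set had a difference of the opposite sign, at -0.35 ± 0.26 (adjusted p = 0.343). The remaining large rises were Zfp329 at 1.47 ± 0.36 (adjusted p = 0.0138) and Zfp871 at 1.23 ± 0.32 (adjusted p = 0.0176). Without the normal newly transcribed array neither passed, at 1.14 for Zfp329 (adjusted p = 0.0553) and 0.48 for Zfp871 (adjusted p = 0.0863).

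Zfp277, which in mouse binds the Polycomb protein Bmi1, was the 1 member gene that fell. Its level was 5.62 in contralateral and 6.26 in normal newly transcribed RNA, against 7.15 and 7.19 on the contralateral and 7.24 and 7.18 on the normal amplified arrays and 7.04 and 6.95 on the contralateral and 7.25 and 7.06 on the normal total RNA arrays. Amplified and total RNA had nearly the same level, and newly transcribed RNA was lower than both. The difference was -1.25 ± 0.18 against amplified total RNA (adjusted p = 0.000983) and -1.13 ± 0.18 against total RNA (adjusted p = 0.00052).

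**Figure D2:**
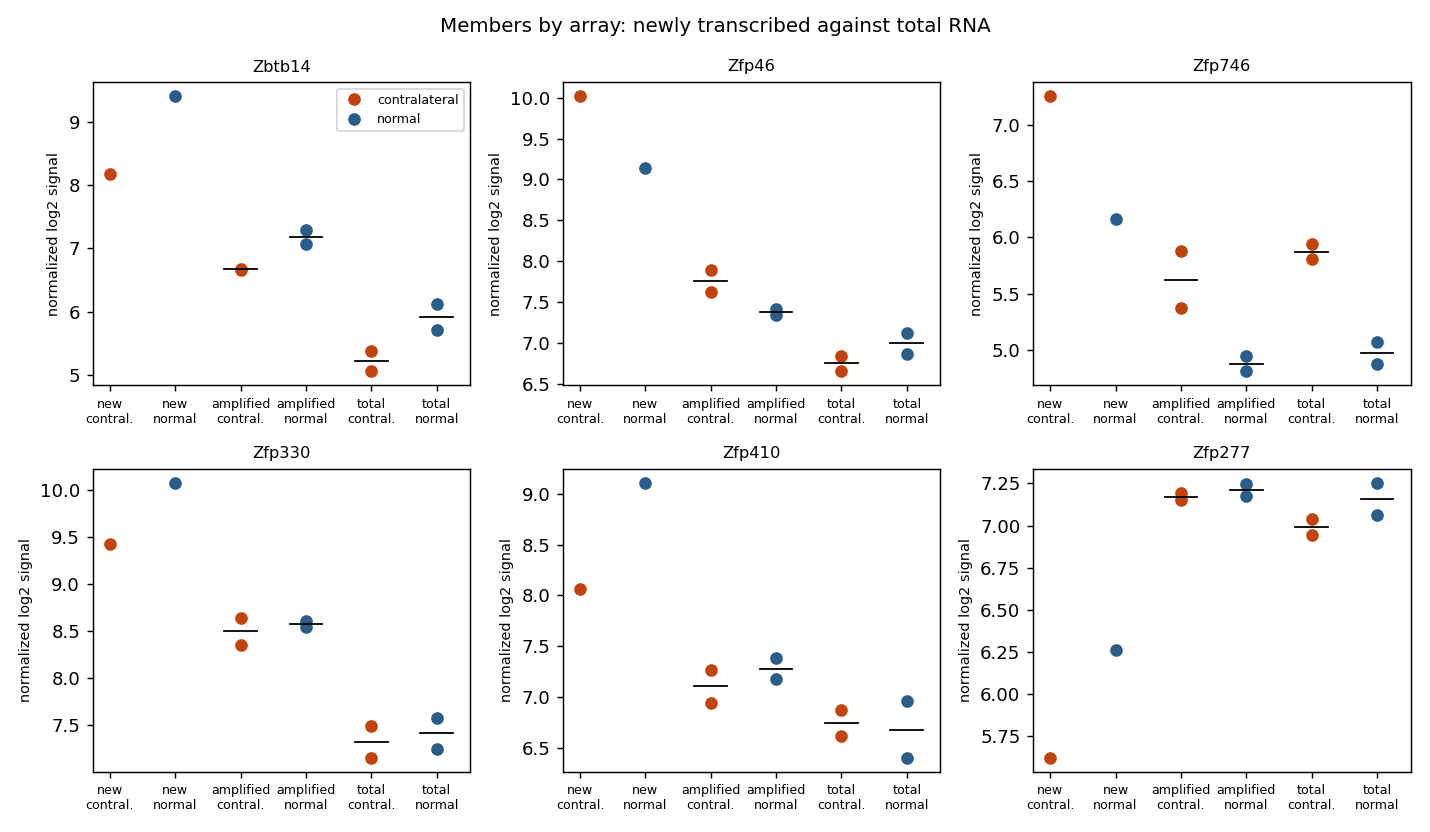
Normalized log2 signal of 6 member genes on each of the 10 arrays, with newly transcribed RNA left, amplified total RNA in the middle and total RNA right, contralateral before normal, and a black line at the mean of each pair of arrays. Zbtb14, Zfp46, Zfp746, Zfp330 and Zfp410 have both newly transcribed arrays above all others, and Zfp277 has them below all others (5.62 and 6.26).

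Each kidney taken alone also had more members higher than lower, with the larger count in the normal kidney. In the contralateral kidney 22 members were at least 2-fold higher in newly transcribed than in amplified total RNA and 12 were at least 2-fold lower (15.2% and 8.28%, background 11.1% and 15.9%), with a member median of 0.20. In the normal kidney 34 were higher and 1 lower (23.4% and 0.69%, background 8.92% and 9.66%), with a member median of 0.49. In both kidneys at once 8 members were at least 2-fold higher (5.52%, background 1.92%) and 0 were at least 2-fold lower (background 3.71%). Those 8 probe sets belong to Zbtb14, Zbtb20, Zfp148, Zfp207, Zfp329, Zfp46 and Zfp746, with Zbtb20 represented by 2, and were listed after their values were seen. Each of these contrasts rests on 1 newly transcribed array and has no test.

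Against total RNA, whose titles name no amplification, more members passed the test and most of them were higher. Of 145 probe sets 60 were higher and 13 lower in newly transcribed RNA, against a background of 24.8% higher and 25.2% lower (50% called), and the member median was 0.48 against 0.01. Of 108 genes 51 were higher and 8 lower, against 27.5% and 22.8% of all 8300 tested genes. Among the 14 Zbtb genes 8 were higher and 0 lower. Both newly transcribed arrays exceeded all 4 total RNA arrays in 69 members (47.6%, background 26.9%) and lay below them in 19 (13.1%, background 27.4%). The Gapdh ratios lie farther apart between these preparations than between newly transcribed and amplified RNA.

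Zfp622, whose yeast counterpart acts in maturation of the large ribosomal subunit, had a level of 11.70 in contralateral and 11.09 in normal newly transcribed RNA, against 8.93 and 8.75 on the contralateral and 8.68 and 8.84 on the normal total RNA arrays. The groups lay far apart, and the difference was 2.60 ± 0.17 (adjusted p = 4.25e-06). The gene's other probe set differed by 0.23 ± 0.36 (adjusted p = 0.615), and the one shown carries the suffix x. The probe set of Zfp764, named below, carries it as well.

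Zfp568, a KRAB protein that represses a placental Igf2 promoter in mouse, had a level of 7.64 in contralateral and 7.66 in normal newly transcribed RNA, against 6.43 and 6.59 on the contralateral and 6.37 and 6.23 on the normal total RNA arrays. Its newly transcribed arrays were nearly equal and above all others, and the difference was 1.25 ± 0.16 (adjusted p = 0.00015). Zfp568 was chosen after its values were seen, as a member with a known single target.

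The other large rises against total RNA were Zfp46 at 2.71 ± 0.25, Zfp330 at 2.38 ± 0.20, Zfp329 at 2.28 ± 0.36, Zfp871 at 2.00 ± 0.32, Zfp764 at 1.95 ± 0.21 and Zfp410 at 1.88 ± 0.27, with adjusted p-values of 1.48e-05 (Zfp330) to 0.000568 (Zfp871).

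The 8 genes that fell against total RNA were Zfp617, Zfp444, Zfp318, Zfp524, Zfp277, Zfp445, Zfp358 and Zfp316, with differences of -1.72 ± 0.33 (Zfp617) to -0.64 ± 0.22 (Zfp316). The call of Zfp445 was lost without the contralateral newly transcribed array (-0.34, adjusted p = 0.159), and those of Zfp358 and Zfp316 were lost without the normal newly transcribed array (adjusted p = 0.0519 and 0.145) and without normal total RNA replicate 1 (adjusted p = 0.0646 and 0.0819). That of Zfp358 was also lost without the contralateral newly transcribed array or contralateral total RNA replicate 2, and that of Zfp316 without normal total RNA replicate 2 or normal amplified replicate 2. Zfp444 had a level of 4.35 in contralateral and 5.16 in normal newly transcribed RNA, against 6.26 and 6.05 on the contralateral and 6.67 and 6.48 on the normal total RNA arrays (-1.61 ± 0.20, adjusted p = 0.00012). Its amplified arrays, at 4.94 and 5.38 for the contralateral and 5.50 and 5.50 for the normal kidneys, also lay below total RNA. Zfp318, which controls the choice between IgM and IgD transcripts in B cells, differed by -1.19 ± 0.20 (adjusted p = 0.000736), whereas its other 2 tested probe sets differed by -0.03 ± 0.22 and 0.33 ± 0.17 (adjusted p = 0.908 and 0.131).

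Amplified total RNA itself differed from total RNA, which gives the size of differences between preparations with no enrichment of new RNA. Of 145 probe sets 34 were higher and 18 lower in amplified RNA, against a background of 20.8% higher and 17.6% lower (38.4% called), with a member median of 0.18 against 0.04. Zfp622 rose by 1.54 ± 0.14 (adjusted p = 6.4e-05), followed by Zfp764, Zbtb14, Zfp330, Zfp768, Zfp467, Zfp821 and Zfp553, the last by 0.98 ± 0.17 (adjusted p = 0.0014). For Zbtb20 the kidneys were unlike, and its fall lay mostly in the contralateral kidney. Its deposited intensities there were 83.2 and 178 on the amplified and 870.6 and 924.3 on the total RNA arrays. In the normal kidney they were 746.2 and 847.1 on the amplified and 899.5 and 886.7 on the total RNA arrays. Averaged over the kidneys, Zbtb20 had the largest fall, at -1.48 ± 0.50 (adjusted p = 0.0384). That call was lost without normal amplified replicate 1, either contralateral amplified array or either contralateral total RNA array (adjusted p = 0.0503 to 0.118). The next were Zfp617 at -1.36 ± 0.27 (adjusted p = 0.00338), Zfp395 at -1.13 ± 0.29, Zfp524 at -1.10 ± 0.15, Zfp444 at -1.03 ± 0.16, Zfp574 at -0.75 ± 0.26, Zfp358 at -0.74 ± 0.20 and Zfp318 at -0.61 ± 0.16. The Zfp574 call (adjusted p = 0.0427) was lost without any 1 of the 4 amplified arrays, either normal total RNA array or contralateral total RNA replicate 2. This comparison and that of newly transcribed against total RNA share the total RNA arrays.

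Between kidneys, total RNA gave few calls among these probe sets, as among all tested probe sets. Member differences ran from -1.17 to 1.02, with quartiles of -0.16 and 0.14, against -0.17 and 0.15 for all tested probe sets. Of 145 probe sets 1 was higher and 0 lower in the contralateral kidney, against a background of 1.58% higher and 0.339% lower (1.92% called). An unadjusted p under 0.05 was found for 21 of the 145 and for 2009 of all 13575. The 1 probe set belongs to Zfp704 and had a level of 6.33 and 6.12 on the contralateral and 5.45 and 5.23 on the normal total RNA arrays (0.89 ± 0.20, adjusted p = 0.0495), which is at the edge of the threshold. The brighter Zfp704 probe set differed by 0.12 ± 0.15 (adjusted p = 0.77), so that by gene 0 of 108 passed. The member genes closest to the threshold were Zfp746 at 0.90 ± 0.22 (adjusted p = 0.0648) and Zbtb20 at 0.42 ± 0.11 (adjusted p = 0.0783) on the higher side, and Zfp810 at -0.75 ± 0.19 (adjusted p = 0.0905) and Zbtb14 at -0.69 ± 0.18 (adjusted p = 0.0922) on the lower side.

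In amplified total RNA 1 member probe set was higher and 14 were lower in the contralateral kidney, against a background of 4.16% higher and 6.19% lower (10.3% called). By gene, 1 of 108 was higher and 6 were lower, against 4.9% and 4.13% of all tested genes. Without normal amplified replicate 1, 0 member probe sets were higher and 7 lower (background 1.34% and 2.69%), and without replicate 2, 1 was higher and 6 lower (background 1.18% and 2.58%). The member median was -0.04 and that of all tested probe sets 0.02. The 6 genes were Zbtb20, Zfp329, Zfp503, Zfp612, Zfp148 and Zfp281, and the gene that was higher was Zfp110. The summed level of the 7 leukocyte markers on the array, of which Cd3e and Itgam were below the filter, was 1804 and 1395 on the contralateral and 1237 and 1287 on the normal amplified arrays. The part of leukocyte RNA in these differences was not tested, and in whole kidneys fewer cells of a type and less RNA per cell cannot be told apart.

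Zbtb20, a BTB zinc finger repressor best known for silencing the alpha-fetoprotein gene in liver, had the largest kidney difference of any member gene in amplified RNA, on the brightest of its 3 probe sets. Its level there was 7.09 and 7.21 on the contralateral and 9.43 and 9.55 on the normal amplified arrays, and 10.05 and 9.98 on the contralateral and 9.60 and 9.59 on the normal total RNA arrays. On the newly transcribed arrays it was 8.28 in the contralateral and 10.80 in the normal kidney. The contralateral kidney was thus far lower in amplified and newly transcribed RNA and slightly higher in total RNA. The difference in amplified RNA was -2.34 ± 0.11 (adjusted p = 8.19e-07). The kidney difference in amplified RNA minus that in total RNA was -2.75 ± 0.15 (adjusted p = 3.3e-06).

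The other 2 Zbtb20 probe sets fell in amplified RNA too. The level of the dimmest probe set was 5.30 and 4.88 on the contralateral and 6.56 and 6.76 on the normal amplified arrays (-1.56 ± 0.18, adjusted p = 0.000394), and 9.07 and 8.91 on the contralateral and 8.73 and 8.41 on the normal total RNA arrays. The level of the third, which carries the suffix a, was 7.20 and 7.64 on the contralateral and 8.21 and 8.38 on the normal amplified arrays (-0.88 ± 0.17, adjusted p = 0.00756). The probe sets parted on the newly transcribed arrays, where the contralateral minus normal difference was -2.87 for the dimmest and -2.53 for the brightest, while the suffixed probe set had 9.28 in the contralateral and 9.31 in the normal kidney.

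**Figure D3:**
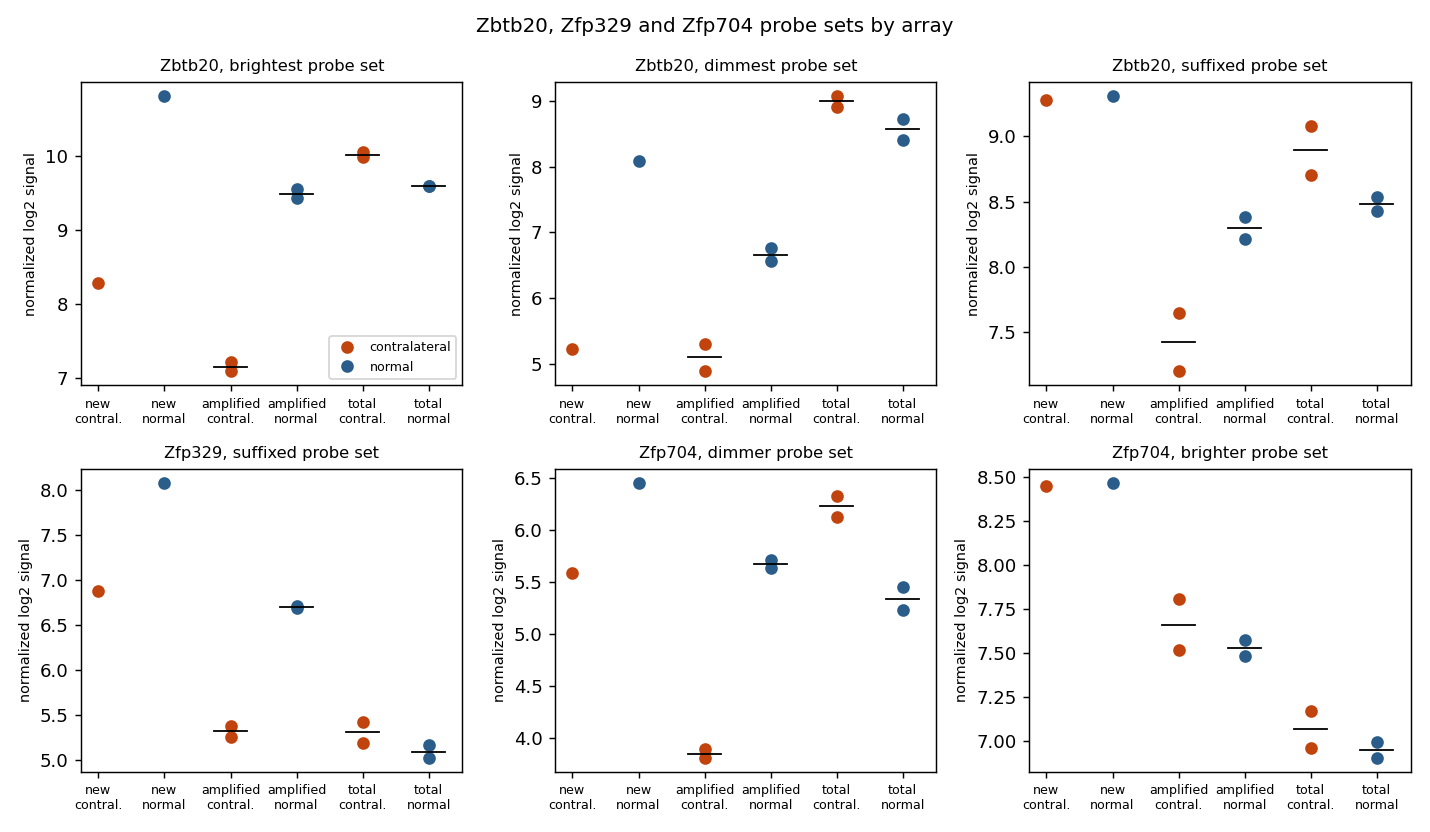
Normalized log2 signal of 3 Zbtb20 probe sets, 1 Zfp329 probe set and 2 Zfp704 probe sets on each of the 10 arrays, ordered as newly transcribed, amplified total and total RNA with contralateral before normal, and a black line at the mean of each pair of arrays. The contralateral amplified arrays lie below the normal ones in all panels but that of the brighter Zfp704 probe set, while the total RNA arrays of the kidneys lie close together or have the contralateral kidney higher.

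Zfp329 showed the same order. Its level was 5.38 and 5.25 on the contralateral and 6.71 and 6.69 on the normal amplified arrays, and 5.19 and 5.42 on the contralateral and 5.16 and 5.02 on the normal total RNA arrays. The kidneys were far apart in amplified RNA and close together in total RNA, and the newly transcribed arrays gave 6.88 in the contralateral and 8.08 in the normal kidney. The difference in amplified RNA was -1.38 ± 0.17 (adjusted p = 0.00059), and it differed from that in total RNA by -1.60 ± 0.25 (adjusted p = 0.00387). Its second probe set differed by -0.43 ± 0.17 in amplified RNA (adjusted p = 0.153).

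Among all members, 0 probe sets had a kidney difference that was higher in amplified than in total RNA and 8 had one that was lower, against a background of 0.648% higher and 3.81% lower (4.46% called). Besides 3 of Zbtb20 and 1 of Zfp329 these were single probe sets of Zfp704, Zfp91, Zfp292 and Zfp644. The dim Zfp704 probe set had 3.81 and 3.90 on the contralateral and 5.63 and 5.71 on the normal amplified arrays, opposite to its total RNA (-2.71 ± 0.28, adjusted p = 0.00039). Zfp91, an atypical ubiquitin ligase, had 7.24 and 6.89 on the contralateral and 8.32 and 8.25 on the normal amplified arrays (interaction -1.64 ± 0.27, adjusted p = 0.00504), and its brighter tested probe set did not pass (-0.10 ± 0.16, adjusted p = 0.798). The brighter probe sets of Zfp704, Zfp292 and Zfp644 did not pass either. By gene, the difference between preparations passed for Zbtb20 and Zfp329 among 108, against 0.747% higher and 1.99% lower of all tested genes.

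Zfp503, a developmental repressor of the NET family, had 7.49 and 7.20 on the contralateral and 8.41 and 8.14 on the normal amplified arrays, with no overlap (-0.93 ± 0.24, adjusted p = 0.0336). In total RNA it had 7.31 and 8.20 on the contralateral and 8.48 and 8.28 on the normal arrays, a difference of -0.62 ± 0.24 that did not pass (adjusted p = 0.259). Zfp612 fell by 0.82 (adjusted p = 0.0182) and Zfp148 by 0.78 (adjusted p = 0.0117). Zfp281, which binds the same kind of GC-rich element as Zfp148 and acts in embryonic stem cells, fell by 0.64 (adjusted p = 0.0351). Zfp110 had 8.28 and 8.16 on the contralateral and 7.60 and 7.75 on the normal amplified arrays (0.55 ± 0.14, adjusted p = 0.0336). Its probe set carries the suffix x. The calls of Zfp503, Zfp612, Zfp148, Zfp281 and Zfp110 were lost without either normal amplified array (adjusted p = 0.054 for Zfp148 to 0.278 for Zfp281) and without contralateral amplified replicate 2. Without contralateral amplified replicate 1 those of Zfp503, Zfp281 and Zfp110 were lost as well, and that of Zfp503 also without either normal total RNA array. The Zbtb20 and Zfp329 calls held without any 1 of the 10 arrays.

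On the newly transcribed arrays, with 1 array against 1 and no test, 11 members were at least 2-fold higher and 37 at least 2-fold lower in the contralateral kidney, against a background of 14.3% higher and 18.5% lower (32.8% past that fold). The member median was -0.35, and 95 of 145 members were below 0. Of 18 Zbtb probe sets 5 were higher and 7 lower, and of 127 Zfp probe sets 6 were higher and 30 lower. With the arrays aligned by their medians instead of by quantiles, the member median was -0.57 and the median of all tested probe sets was -0.21. The direction of a member here is therefore relative to the bulk of probe sets.

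Beside these differences, the contralateral newly transcribed array had a summed level of 2232 for the 7 leukocyte markers, against 1106 on the normal one. Csf1r was the brightest of these, at 10.94 on the contralateral and 9.80 on the normal array. Of the 5 tested leukocyte markers 4 were higher and 1 was lower in the contralateral kidney, the lower one being Ptprc (-0.52). The 5 fibroblast and smooth muscle markers summed to 3031 on the contralateral and 1001 on the normal array. Singly, 4 of them were higher and 1, Myh11, was lower (-1.36). The 4 endothelial markers summed to 241 on the contralateral and 450 on the normal array. Singly, 3 of them were lower and 1, Cdh5, was higher (0.46). The 8 kidney markers summed to 12640 on the contralateral and 14870 on the normal array. Of these 3 were higher and 5 lower, from -1.26 (Lrp2) to 0.74 (Aqp2). The 5 adipose, muscle and adrenal markers on the array, of which 2 were above the filter, summed to 270 on the contralateral and 55.8 on the normal array. The 3 red cell markers, of which 2 were above it, summed to 525 on the contralateral and 210 on the normal array. Slc4a1, on a probe set with the suffix x, was the brightest there, with 8.75 on the contralateral and 7.33 on the normal array. Alas2 had 6.70 on the contralateral and 5.89 on the normal array, and Hba-a1, below the filter, had 4.61 and 4.68. The part of other cell types and of the Gapdh ratio in these differences was not tested.

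**Figure D4:**
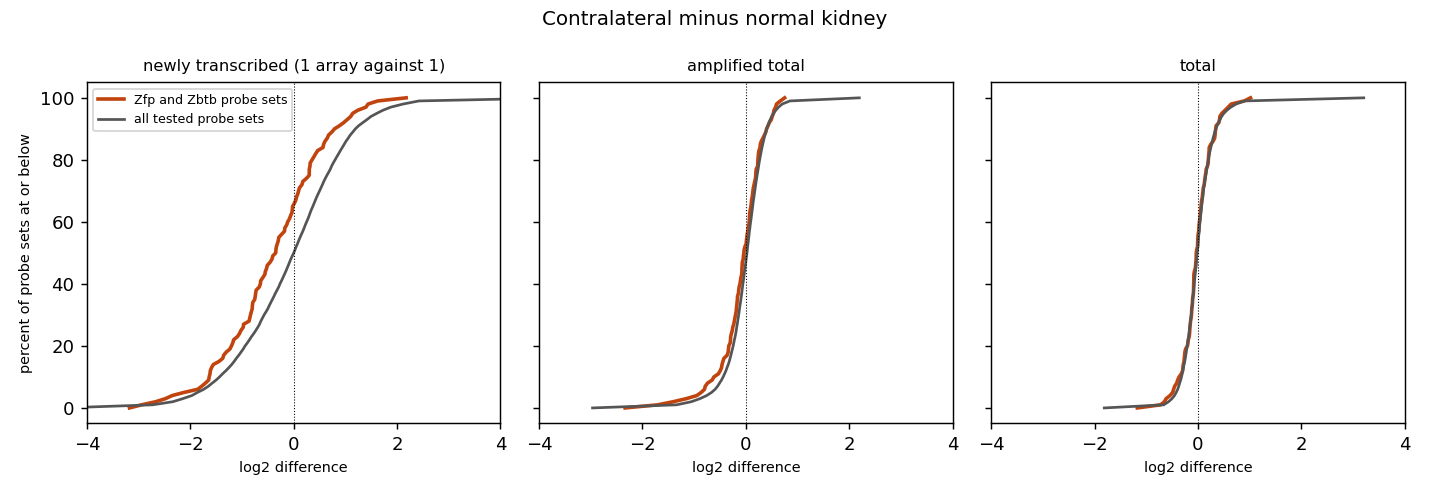
Cumulative curves of the contralateral minus normal log2 difference for the 145 tested Zfp and Zbtb probe sets and for all 13575 tested probe sets, in newly transcribed RNA (1 array against 1), amplified total RNA and total RNA, with the percent of probe sets at or below each difference on the y axis. The member curve lies left of the other in newly transcribed RNA (median -0.35) and close to it in amplified RNA (medians -0.04 and 0.02) and total RNA (medians -0.03 and -0.02).

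The gene lowest in the contralateral kidney was Zbtb18, a repressor known from brain development, with 7.39 in contralateral and 10.57 in normal newly transcribed RNA. Its normal array stood above every other array of this probe set, since the amplified arrays had 7.64 and 7.14 in contralateral and 7.94 and 7.75 in normal kidneys. Zfp207, a spindle protein that binds Bub3, had 4.92 on the contralateral and 7.56 on the normal array, and its other 2 tested probe sets differed by -1.64 and -0.84. The next lowest were Zbtb20, Zfp101 with 4.48 on the contralateral and 6.87 on the normal array, Zfp148, Zfp280c, Zfp292 and Zfp617, with differences of -2.53 (Zbtb20) to -1.61 (Zfp617). In amplified RNA Zfp207 and Zfp280c lay on the opposite side, higher in the contralateral kidney by 0.61 and 0.59, and neither passed (limma adjusted p = 0.0771 and 0.0613).

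The gene highest in the contralateral kidney was Zbtb21, with 7.42 in contralateral and 5.24 in normal newly transcribed RNA. Its amplified and total RNA arrays ran from 5.10 to 5.63 in both kidneys, so the 1 contralateral newly transcribed array stood apart. Zfp598, the ubiquitin ligase that marks collided ribosomes, had 8.45 on the contralateral and 6.79 on the normal array. Zfp703, a relative of Zfp503, had 6.94 on the contralateral and 5.53 on the normal array. Zbtb7b, also called ThPOK and known for directing T cells to the CD4 lineage, had 7.74 on the contralateral and 6.55 on the normal array. Its total RNA went the other way, with deposited intensities of 185.6 and 63.8 on the contralateral and 283.1 and 433.5 on the normal arrays. On the amplified arrays they were 66.4 and 121.5 for the contralateral and 96.2 and 102.2 for the normal kidney. Zbtb11os1, Zbtb22, Zfp574 and Zfp651 were higher by 1.58, 1.42, 1.38 and 1.15, and Zbtb11os1 is named as an opposite-strand transcript.

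Of the 14 member probe sets called lower in contralateral amplified RNA, 9 (64.3%) were also at least 2-fold lower in contralateral newly transcribed RNA, against 420 of 840 (50%) of all probe sets called lower there. The exceptions were the suffixed probe set of Zbtb20, the brighter one of Zfp503, and probe sets of Zfp612, Zfp704 and Zfp91. For Zfp91 the newly transcribed level was 9.63 in the contralateral and 8.67 in the normal kidney, opposite to amplified RNA.

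Over all 3 preparations 1 member was higher and 0 lower in the contralateral kidney, against a background of 0.383% higher and 0.0589% lower (0.442% called). That member was Zfp746. Its level in contralateral kidneys was 7.26 in newly transcribed, 5.37 and 5.88 in amplified and 5.81 and 5.94 in total RNA, against 6.17 in newly transcribed, 4.81 and 4.94 in amplified and 5.07 and 4.87 in total RNA of normal kidneys. Within each preparation every contralateral array was above every normal one. The difference was 0.88 ± 0.14 (adjusted p = 0.0334), and within preparations it was 1.09 in newly transcribed RNA, 0.75 ± 0.22 in amplified RNA (adjusted p = 0.0504) and 0.90 ± 0.22 in total RNA (adjusted p = 0.0648). The call for Zfp746 held in 7 of 17 alternative settings, with adjusted p-values of 0.0205 to 0.129. It was lost without any 1 of the 4 total RNA arrays, either normal amplified array or contralateral amplified replicate 2, with differences of 0.81 to 0.92.

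Where a gene had several tested probe sets, they often differed. Of 30 such member genes, probe sets pointed both ways in 10 for newly transcribed minus amplified RNA, in 13 for newly transcribed minus total RNA, in 12 for the kidney difference in total RNA and in 13 for that in amplified RNA. Some suffix letters, such as x, mark possible cross-hybridisation, and the letters were not told apart in the next counts. The 24 tested probe sets with a suffix of any letter had 8 higher and 1 lower in newly transcribed against amplified RNA. The 121 without a suffix had 20 higher and 1 lower, against 11.9% and 16.7% of all tested probe sets. Both kinds had medians above 0, at 0.24 and 0.36.

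Many Zfp genes lie in clusters, and 42 of the 193 genes are on chromosome 7, 27 on chromosome 17 and 18 on chromosome 8. Of the tested genes on chromosome 7, 11 of 16 were higher and 2 lower in newly transcribed against total RNA, with a median of 1.00. The shares over all tested genes were 27.5% higher and 22.8% lower. On chromosome 17 it was 7 higher and 1 lower of 14, on chromosome 8 it was 3 higher and 2 lower of 9, and on the other chromosomes it was 30 higher and 3 lower of 69. Against amplified RNA the 4 medians were closer together, at 0.35, 0.44, 0.30 and 0.38.

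The proteins that these factors work with were read from lists chosen for that purpose. Of 11 tested genes of the KRAB silencing machinery 4 were higher and 0 lower in newly transcribed against amplified RNA. The shares over all tested genes were 13.1% higher and 16.9% lower, with a median of 0.01. The 11 had a median of 0.03, and 5 of them lay below 0. Trim28 and Setdb1, added after their values were seen, did not pass. They differed by 0.52 ± 0.24 (adjusted p = 0.136) and -0.09 ± 0.21 (adjusted p = 0.79). Cbx5, the heterochromatin protein that reads methylated histone H3, rose by 1.14 ± 0.15 (adjusted p = 0.000763), Mphosph8 of the HUSH complex by 1.05 ± 0.17 (adjusted p = 0.00186) and Morc3 by 0.97 ± 0.24 (adjusted p = 0.0128). Of 9 tested partners of BTB proteins, read against the same shares, 2 were higher, Tbl1xr1 at 1.00 ± 0.18 (adjusted p = 0.00327) and Sin3a at 0.94 ± 0.18 (adjusted p = 0.004), and 1 was lower, the ubiquitin ligase scaffold Cul3 at -1.10 ± 0.33 (adjusted p = 0.0311).

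Zinc finger genes with other symbols were counted in the same way. Of 19 tested C2H2 genes 8 were higher and 1 lower, with a median of 0.70, against 13.1% higher and 16.9% lower over all tested genes, among them Yy1 at 1.07 ± 0.19 (adjusted p = 0.00249). Of 5 tested BTB zinc finger genes 1 was higher, Mynn at 1.25 ± 0.23 (adjusted p = 0.00365), and 0 were lower. Between kidneys in amplified RNA, 3 of the 19 C2H2 genes were higher and 2 lower, against 4.9% and 4.13% of all tested genes. The higher ones were Maz at 1.21 ± 0.25 (adjusted p = 0.0112), Zscan21 at 0.75 ± 0.18 (adjusted p = 0.0208) and Yy1 at 0.48 ± 0.12 (adjusted p = 0.0281). The lower ones were the neuronal gene repressor Rest at -1.24 ± 0.16 (adjusted p = 0.000726) and Zeb2 at -1.27 ± 0.24 (adjusted p = 0.00757). Of the BTB partners 1 of 9 passed there, Tbl1x, which was higher by 0.68 ± 0.12 (adjusted p = 0.00435), and of the KRAB partners 0 of 11 passed.

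Without the filter on dim probe sets all 280 members can be counted. In newly transcribed against amplified RNA 26 were higher and 1 lower (9.29% and 0.357%), against 6.32% and 8.94% of all probe sets. Against total RNA 69 were higher and 16 lower (24.6% and 5.71%), against 16.4% and 15.9%. Between the newly transcribed arrays of the kidneys 15 were at least 2-fold higher and 51 lower (5.36% and 18.2%), against 11.4% and 13% of all. Between kidneys in amplified RNA 1 was higher and 8 were lower (0.357% and 2.86%), against 1.61% and 2.89% of all. The share of members called lower there was thus near that of all probe sets, unlike in the filtered fit.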

How the data were processed

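The authors deposited 1 linear signal intensity per probe set for each of 10 Affymetrix arrays; how it was summarised or scaled is not given in the sources used here, and no detection call was used. Per the labels' protocols, isolated RNA was reverse-transcribed, linearly amplified and biotin-labelled through a T7-based step. A pseudocount of 11.8, the 25th percentile over all arrays, was added before log2 and quantile normalization, which understates changes of dim genes. The 64 control probe sets were left out, and probe sets with a mean above the 40th percentile were tested. Linear models were fitted with R 4.3.3 and limma 3.58.1 (lmFit, eBayes with trend), with Benjamini-Hochberg adjustment at 0.05 over all tested probe sets.

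Kidney differences in total and amplified RNA, and the difference between them, came from a model of 6 group means (4 residual degrees of freedom). Comparisons of preparations and the kidney difference over all preparations came from an additive model (6 residual degrees of freedom). The newly transcribed kidney difference has 1 array per group, so a fold of at least 2 was counted. Precision is limited by the number of arrays. In the model of group means, p-values measure the spread between deposited arrays of the same group. In the additive model that spread also holds any part of a kidney difference that varies between preparations. Newly transcribed RNA adds no spread within a kidney group, since it has 1 array per group.

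Per comparison, genes were named from the 8 largest rises and 8 largest falls that passed, filled to 4 by smallest unadjusted p, and up to 3 genes per partner list. Further probe sets of these genes, and genes said to be so, were chosen after their values were seen. The members and lists were chosen with earlier results of these data known. All 280 member probe sets matched a RefSeq gene by Entrez number, and 0 symbols changed. The 19 Zfp or Zbtb probe sets with several symbols were not used. A planned split by KRAB domain was not made, because protein sequences were not used here, and the splits by name, suffix and chromosome took its place. Alternatives were the pseudocount, the normalization, the filter, a replicate block, fewer arrays and leaving out each array. The code was tested on simulated data.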

Additional observations from a re-analysis of the deposited data

Results flagged for a closer look

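For 2 member genes the kidney difference itself differed between amplified and total RNA, by the interaction term in limma. Zbtb20 had a kidney difference in amplified RNA minus that in total RNA of -2.755, and Zfp329 of -1.5995, on the log2 scale. The Zbtb20 call was past the threshold in 18 of 18 alternative settings and the Zfp329 call in 17 of 17. No group held enough arrays for a test of single outlying arrays.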

How the results depend on the processing

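Counts below are member probe sets called. The share of all tested probe sets called also moved with the setting. A change in a count is therefore not by itself particular to the members. In total RNA between kidneys the 1 call became 0 with a pseudocount of 1, median centring, no filter, a filter at the 60th percentile or the 8 arrays of total and amplified RNA only, and ran from 0 to 4 when arrays were left out in turn (4 without either contralateral amplified array). In amplified RNA the 15 calls became 9 without the filter and 9 at the 60th percentile, and ran from 7 to 15, with 7 without either normal amplified array. In newly transcribed RNA the 48 past 2-fold became 29 with the pseudocount at the median and 20 at the 60th percentile, where fewer probe sets are counted. Over all preparations the 1 call became 0 with the pseudocount at the median, without the filter, at the 60th percentile and with the replicate block, and ran from 0 to 2. Newly transcribed against amplified RNA had 30 calls and 24 to 54 with an array left out, with 53 without the contralateral and 54 without the normal newly transcribed array. Against total RNA 73 became 36 at the 60th percentile and ran from 64 to 81. Amplified against total RNA had 52 calls, which became 25 at the 60th percentile, and ran from 35 to 77. The 8 calls on the difference between kidney differences became 5 at the 60th percentile and ran from 6 to 9. The cause of other changes was not tested.

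With the replicate number as a block the counts were 1 in total RNA, 15 in amplified RNA, 26 for newly transcribed against amplified RNA, 66 against total RNA, 44 for amplified against total RNA and 7 for the difference between kidney differences. Replicate differences of same-numbered arrays correlated by -0.0701 to 0.0998 between groups, so the numbers were not treated as pairing the arrays. The highest values were those of total with amplified RNA of the same kidney group, at 0.0971 for normal and 0.0998 for contralateral kidneys. Such correlations cannot show whether same-numbered arrays came from the same mice. Of the recomputed counts 91 stayed within 1.5 times and 38 did not. No direction of a called value was reversed. Few arrays and 1 newly transcribed array per kidney group limit the precision, and dim members have little signal over the array's lowest intensities.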
